A study of Mus musculus with 39 samples.

Results

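The testosterone-making pathway of Leydig cells was followed through 10 genes, Star, Cyp11a1, Cyp17a1, Hsd3b1, Hsd3b6, Hsd17b3, Lhcgr, Nr5a1, Srd5a1 and Scarb1, chosen by symbol from textbook knowledge. All 10 were found among the 21561 Ensembl genes shared by the 2 deposited count tables. The data are bulk RNA-seq of whole testis and of gubernaculum, the cord of tissue that guides the testis into the scrotum, from male C57BL/6J mice, with no drug or surgery. Wild-type (WT) mice were set against homozygous INSL3-KI mice, in which cDNA of the minke whale hormone was placed at the mouse Insl3 locus by homologous recombination in embryonic stem cells and the neomycin cassette was then removed with Cre, and against INSL3-KO mice. How the INSL3-KO line was made, and whether tissue of several animals was pooled, is not given in the sources used here. Testis was taken on postnatal day 8 (P8), P23 and P40 from WT and INSL3-KI and at P8 and P23 from INSL3-KO, gubernaculum at P8 from all 3 genotypes and at P23 from WT and INSL3-KI, with 3 libraries in each of the 13 groups. The libraries of a group are named as biological replicates, and p-values measure only the spread between them.

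Leydig cells lie between the seminiferous tubules and make testosterone from cholesterol under luteinizing hormone. The receptor Lhcgr receives that signal and the nuclear receptor Nr5a1 drives the steroidogenic genes, Scarb1 takes up cholesterol from lipoproteins, Star carries it into the mitochondrion, and Cyp11a1, the 3beta-hydroxysteroid dehydrogenases Hsd3b1 and Hsd3b6, Cyp17a1 and Hsd17b3 convert it stepwise to testosterone, which Srd5a1 can reduce further. A fetal and an adult generation of Leydig cells follow each other in the mouse, and the adult cells are known for expressing Hsd3b6 and Hsd17b3, whereas in the fetal testis the last step is known to take place in Sertoli cells. In bulk tissue, fewer cells of a type and less RNA per cell cannot be told apart. Nor do the data show from which cell type the transcripts of a gene came.

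Testis libraries held 33000204 to 42629270 counts and gubernaculum libraries 29861447 to 45260372. Levels of a gene are given below as CPM, the count scaled to library size, with TMM factors over all testis libraries, and levels of different genes are compared only as FPKM, which is per length of transcript. A gene was called changed at an adjusted p under 0.01 with at least a 2-fold difference. Every INSL3-KO library and the WT P23 testis libraries stood in the second table (12 libraries) and all others in the first (27 libraries). The transcript length implied by counts and FPKM differed between the tables for Lhcgr (6746 against 2697 bases) and Star (4156 against 2939 bases), so that a difference between tables in these genes may hold a part that comes from the gene model and could not be told apart from genotype. The INSL3-KI testis libraries spread more widely than others, with a biological coefficient of variation of 0.326 at P8, 0.353 at P23 and 0.374 at P40 against 0.0789 to 0.235 in WT and INSL3-KO. INSL3-KI P8 replicate 2, P23 replicate 3 and P40 replicate 1 stood apart from the other libraries of their groups.

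The targeted gene was examined before the pathway. Mouse Insl3, the Leydig cell hormone itself, had 2922, 3524 and 2722 counts in WT testis at P8, 20844, 25238 and 23851 at P23, and 20183, 20887 and 29799 at P40. INSL3-KI testis held 33, 15 and 26 counts at P8, 52, 66 and 84 at P23, and 445, 443 and 511 at P40, which was 0.757%, 0.199% and 1.3% of the WT mean CPM of the same day. These are counts of reads assigned to the mouse Insl3 gene, and whether transcripts of the inserted whale cDNA add to them was not tested. INSL3-KO testis held 0, 5 and 0 counts at P23, but the libraries labelled INSL3-KO at P8 held 906, 804 and 613, which was 22.7% of the WT mean CPM. Directions drawn from the libraries labelled INSL3-KO at P8 are given with that reservation. Of the 623 exon bases of Insl3, 404 (64.8%) are also annotated to Jak3 on the same strand. In gubernaculum at P8, Insl3 had 87, 25 and 29 counts in WT, 0, 0 and 0 in INSL3-KI and 0, 0 and 0 in INSL3-KO. At P23 it had 27, 9 and 20 in WT and 12, 28 and 0 in INSL3-KI, which overlapped. What gave rise to the counts in the mutants was not tested.

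Hsd3b1 and Hsd3b6 are neighbouring, closely related genes on chromosome 3 (GRCm38, minus strand, 98852194 to 98859794 and 98805504 to 98814443), and since the results below turn on this pair, the RefSeq promoters of both are shown (GRCm38.p6, minus strand, 250 bases before to 50 after the start of transcription, chr3:98859745-98860044 for Hsd3b1 and chr3:98814394-98814693 for Hsd3b6). Capitals mark the letters of the GATA core, searched as TGATAA or AGATAA on either strand.
Hsd3b1: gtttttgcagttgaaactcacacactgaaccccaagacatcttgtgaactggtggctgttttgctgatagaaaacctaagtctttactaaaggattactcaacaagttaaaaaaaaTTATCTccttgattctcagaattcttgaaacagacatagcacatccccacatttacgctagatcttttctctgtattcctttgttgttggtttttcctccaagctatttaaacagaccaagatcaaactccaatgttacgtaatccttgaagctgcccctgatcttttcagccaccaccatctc
Hsd3b6: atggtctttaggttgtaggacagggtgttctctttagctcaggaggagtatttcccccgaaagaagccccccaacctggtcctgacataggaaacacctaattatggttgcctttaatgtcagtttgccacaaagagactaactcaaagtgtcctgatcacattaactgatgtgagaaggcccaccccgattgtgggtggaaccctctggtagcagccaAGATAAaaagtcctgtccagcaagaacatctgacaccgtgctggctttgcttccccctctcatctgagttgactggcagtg
The core lay at bases -134 to -129 of Hsd3b1, read on the opposite strand as TTATCT on the strand shown, and at bases -31 to -26 of Hsd3b6, so that its place and orientation differed between the neighbours. Of 10 genes, 6 had a promoter in the RefSeq table, with 7 windows in all because Cyp11a1 has a pair of starts. The GATA core was in 2 of the 7 windows and in 18.6% of all 32851 promoters, whereas the Nr5a1 half-site (AAGGTCA or AAGGCCA, either strand) and the TATA box (TATAAA, either strand) were in 0 of the 7 and in 10.6% and 13.6% of all. Such matches are a description of the letters in these windows. Of the exonic words of 50 bases, 38 of 1851 in Hsd3b1 (2.05%) also occur in Hsd3b6, so most reads of that length could be told apart between the paralogs. Srd5a1 shares 476 of 2909 exon bases (16.4%) with Gm17108 and Cyp11a1 shares 145 of 4804 (3.02%) with Gm17322, both on the same strand, and those counts are uncertain to that extent.

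In WT testis the order of the genes by FPKM turned over between P8 and P40. At P8 the highest were Hsd3b1 (110.2 mean FPKM), Scarb1 (97.2), Nr5a1 (94.6) and Hsd17b3 (87.4), neighbours whose ranges overlapped, followed by Cyp17a1 (71.1) and Cyp11a1 (66.3), which also overlapped. Star (18.3), Srd5a1 (5.06) and Lhcgr (4.02) were lower, and Hsd3b6 (0.0212) stood last. At P40 Cyp17a1 (140.3) and Cyp11a1 (97.0) led without overlap, Hsd3b1 (46.5), Scarb1 (44.7) and Hsd3b6 (41.3) overlapped as neighbours, Hsd17b3 (16.0), Nr5a1 (14.8) and Star (12.3) overlapped below them, and Srd5a1 (3.63) and Lhcgr (3.33) came last. Cyp17a1 and the side-chain cleaving Cyp11a1 were thus the most abundant in the older testis, while Hsd3b6 moved from the bottom of the list to the level of its paralog.

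**Figure D1:**
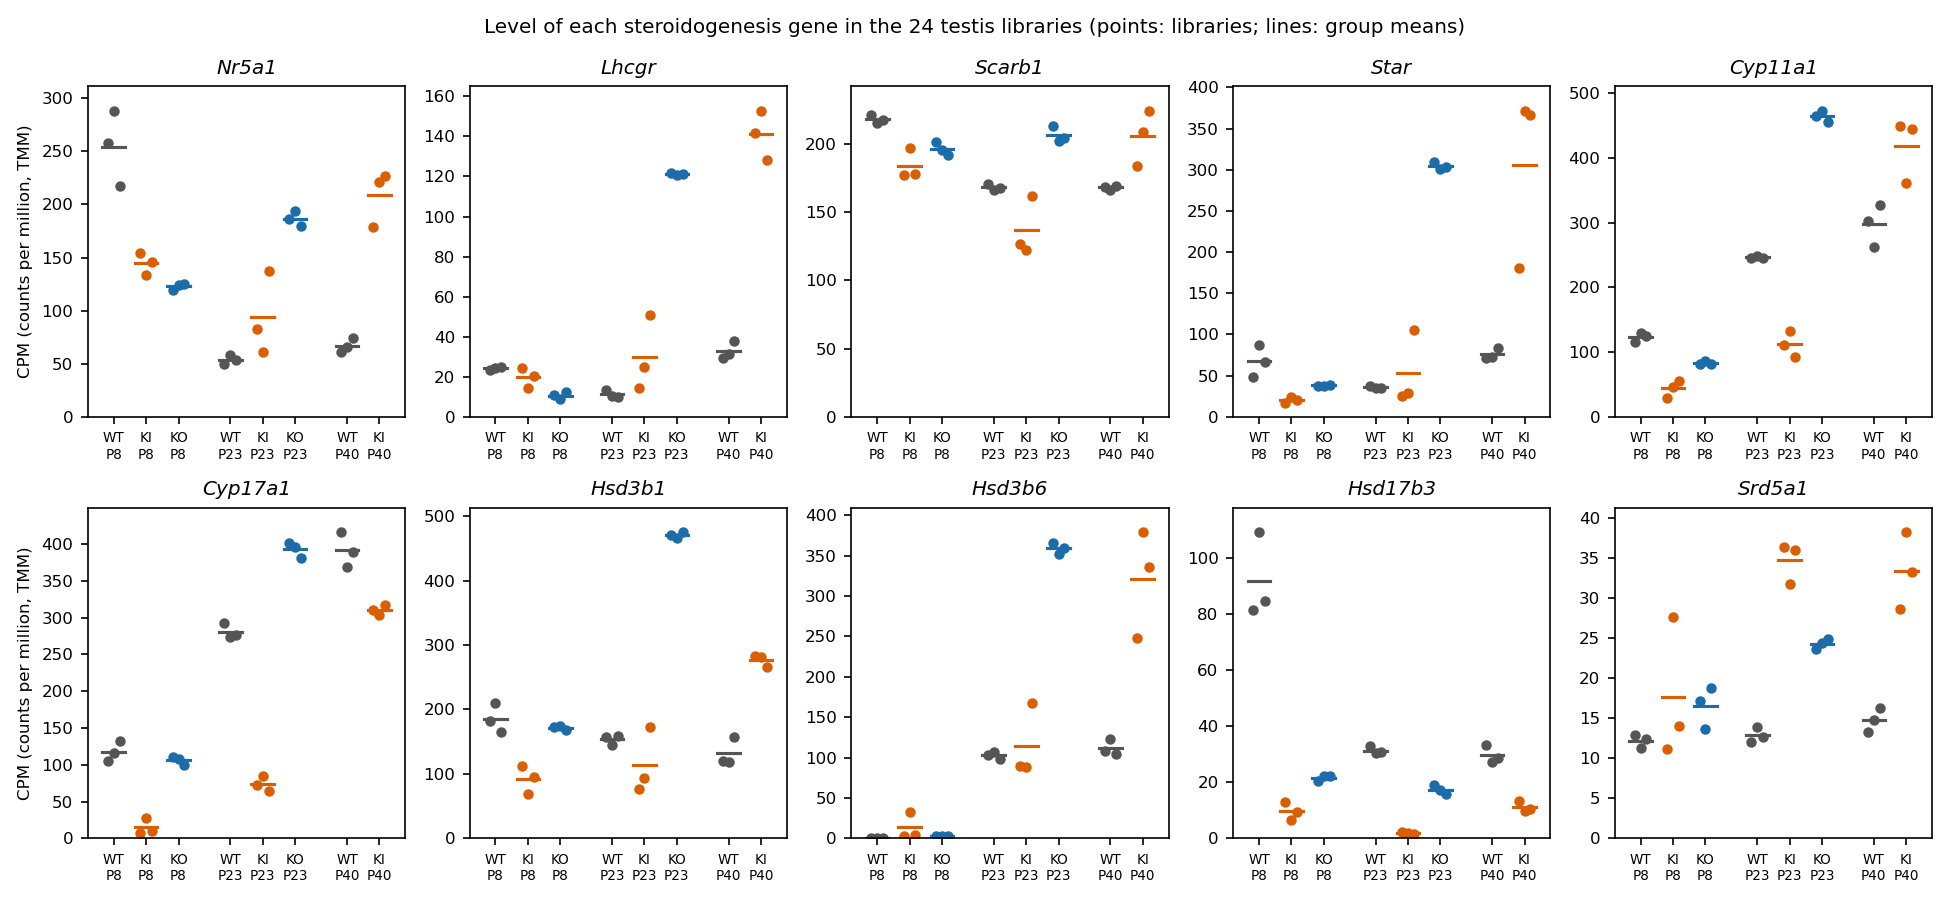
TMM-scaled CPM of the 10 genes in the 24 testis libraries on linear axes that start at 0, each point being a library, each line a group mean and each colour a genotype, by postnatal day. Hsd3b6 was at 0 to 0.0749 CPM in WT at P8, and Hsd17b3 of the mutants lay below that of WT at every age.

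At P8, 5 of the 10 genes were called in INSL3-KI against WT testis, 4 lower and 1 higher, where 6.29% of all 15702 genes tested were called. Star, Cyp11a1, Cyp17a1 and Hsd17b3 were lower and Hsd3b6 was higher. The other 5, Nr5a1, Lhcgr, Scarb1, Hsd3b1 and Srd5a1, did not pass both thresholds. The summed CPM of all 10 was 1045 to 1191 in WT and 550 to 577 in INSL3-KI, ranges that did not overlap.

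Of the upstream genes, Nr5a1 was at 258, 288 and 217 CPM in WT and 154, 133 and 146 in INSL3-KI at P8, groups that did not overlap. The difference passed the p threshold but was under 2-fold (log2 fold change -0.75, edgeR adjusted p = 0.008). Lhcgr, the luteinizing hormone receptor, was at 23.1, 24.5 and 25.0 CPM in WT and 24.2, 14.6 and 20.2 in INSL3-KI, which overlapped (-0.23, adjusted p = 0.39). Scarb1, the lipoprotein receptor, was at 221, 215 and 218 CPM in WT and 177, 197 and 178 in INSL3-KI (-0.18, adjusted p = 0.098). Star, which makes cholesterol available to the first enzyme, was at 48.4, 87.3 and 66.1 CPM in WT and 17.4, 23.7 and 20.5 in INSL3-KI, so the highest mutant library lay below the lowest WT library. The log2 fold change of Star was -1.65 (SE 0.23, edgeR adjusted p = 0.0053).

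Cyp11a1, which cleaves the cholesterol side chain, was at 115, 129 and 125 CPM in WT and 29.5, 46.4 and 55.8 in INSL3-KI at P8 (log2 fold change -1.42, SE 0.23, edgeR adjusted p = 0.0072). Cyp17a1, which makes androgen precursors from progestins, was at 105, 117 and 132 CPM in WT and 7.71, 27.0 and 9.42 in INSL3-KI (-2.95, SE 0.48, adjusted p = 0.0073). Hsd17b3, which makes testosterone from androstenedione, was at 81.4, 109 and 84.6 CPM in WT and 12.8, 6.62 and 9.38 in INSL3-KI (-3.18, SE 0.27, adjusted p = 0.0031). For these 3 enzymes every mutant library lay below every WT library, and the gap was widest for Hsd17b3. Hsd3b1 was at 183, 209.7 and 165 CPM in WT and 112, 68.1 and 94.9 in INSL3-KI, again without overlap, but its log2 fold change of -0.95 was not called (adjusted p = 0.015). Srd5a1, which makes dihydrotestosterone, was at 12.9, 11.3 and 12.4 CPM in WT and 11.2, 27.7 and 14 in INSL3-KI, groups that overlapped (0.58, adjusted p = 0.2).

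Hsd3b6 was nearly absent from WT testis at P8, with 3, 0 and 3 counts, and present in every INSL3-KI library, with 150, 1304 and 213 counts. Replicate 2 of INSL3-KI held most of these counts, yet the lowest mutant library still had 150 counts against at most 3 in WT. Taken over the group, the share of counts in INSL3-KI was 297.8 times that in WT (95% interval 136.5 to 812.7, which covers counting error only). The fitted log2 fold change was 8.11 (SE 1.38, edgeR adjusted p = 0.0082), a value that depends on the prior count for a gene so near 0. Adjusted p-values of the 5 called genes lay just under the threshold: without WT replicate 2 or 3, or INSL3-KI replicate 1 or 3, 0 of the 10 genes were called, without WT replicate 1 there were 2 and without INSL3-KI replicate 2 there were 4. No direction turned in these refits.

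At P23, 4 of the 10 genes were called in INSL3-KI against WT testis, 3 lower and 1 higher, where 20.6% of all 16603 genes tested were called. Cyp11a1, Cyp17a1 and Hsd17b3 were lower and Srd5a1 was higher. Sertoli scaling gave 0 higher and 3 lower (Cyp17a1, Hsd17b3 and Hsd3b1), where 10.8% of all genes were lower, with Cyp11a1 at -2.23 (adjusted p = 0.014) and Srd5a1 at 0.25 no longer called, and moved the median over all genes from 0.08 to -1.10. WT P23 and INSL3-KI P23 stood in different tables. INSL3-KI replicate 3 was the highest of the mutant libraries in each of the 6 genes that were not called.

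Cyp11a1 was at 246, 249 and 245 CPM in WT and 111, 132 and 92.6 in INSL3-KI at P23 (log2 fold change -1.13, SE 0.16, edgeR adjusted p = 0.003). Cyp17a1 was at 293, 273 and 276 CPM in WT and 72.0, 84.9 and 64.2 in INSL3-KI (-1.91, SE 0.15, adjusted p = 0.00048). Hsd17b3 was at 32.8, 30.5 and 30.7 CPM in WT and 2.26, 1.99 and 1.46 in INSL3-KI (-4.02, SE 0.21, adjusted p = 0.00023). No library of either genotype overlapped the other for these enzymes, and the highest mutant level of Hsd17b3 was 2.26 CPM against a lowest WT level of 30.5. Srd5a1 went the other way, with 12.1, 13.9 and 12.7 CPM in WT and 36.3, 31.7 and 36.0 in INSL3-KI (1.44, SE 0.14, adjusted p = 0.001).

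Star was at 37.3, 35.4 and 35.5 CPM in WT and 25.2, 29.0 and 105 in INSL3-KI at P23, where replicates 1 and 2 lay below WT and replicate 3 above it (log2 fold change 0.58, edgeR adjusted p = 0.4). Lhcgr was at 13.5, 10.6 and 10.1 CPM in WT and 14.5, 24.8 and 50.9 in INSL3-KI (1.42, adjusted p = 0.036). Nr5a1 was at 49.6, 58.1 and 53.0 CPM in WT and 82.4, 60.9 and 138 in INSL3-KI (0.83, adjusted p = 0.055). In the receptor and the transcription factor all mutant libraries lay above WT in TMM-scaled CPM. The gap was small in the lowest library and largest in replicate 3. Nr5a1 was at -0.52 under Sertoli scaling. With the unequal gene models of Lhcgr, its FPKM overlapped, at 1.798 to 7.438 in INSL3-KI against 2.335 to 3.13 in WT. INSL3-KI replicate 1 lay below every WT library in that unit. How much of the Lhcgr difference came from the gene model was not tested. Hsd3b1 (-0.41, adjusted p = 0.29) and Hsd3b6 (0.18, adjusted p = 0.61) overlapped WT, and Scarb1 lay below it (-0.28, adjusted p = 0.17). Without WT replicate 1 or 3, 2 of the genes were called.

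At P40, 6 of the 10 genes were called higher and 1 lower in INSL3-KI against WT testis with TMM scaling, where 47.7% of all 16677 genes tested were called, while scaling on Sertoli cell markers gave 0 higher and 6 lower, where 73% of all genes were lower, so the share of lower members was no larger than that of all genes. The genes that differed most on the TMM scale were Lhcgr, Star and Nr5a1, above the enzymes, and each turned below 0 under Sertoli scaling. Hsd17b3 was the called gene that was lower, and it was lower under Sertoli scaling too. Both groups stood in the same table, and all 10 genes were without overlap between genotypes in TMM-scaled CPM, as were 83.9% of all genes tested.

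Lhcgr was at 29.2, 31.4 and 38.0 CPM in WT and 142, 153 and 128 in INSL3-KI at P40, which was a difference of 2.15 on the log2 scale (SE 0.16, edgeR adjusted p = 0.00022) under TMM and of -0.13 under Sertoli scaling. Nr5a1 was at 60.6, 65.7 and 74.4 CPM in WT and 178, 221 and 227 in INSL3-KI, with 1.70 (SE 0.18, adjusted p = 0.00045) under TMM and -0.62 under Sertoli scaling. Star was at 71.8, 73.0 and 83.7 CPM in WT and 181, 372 and 366 in INSL3-KI, with 2.07 (SE 0.33, adjusted p = 0.0018) under TMM and -0.30 under Sertoli scaling. In each of these genes the mutant libraries were above WT in TMM-scaled CPM, and replicate 1 was the lowest of the mutants for Star and Nr5a1. Scarb1, at 168, 166 and 169 CPM in WT and 183, 209 and 224 in INSL3-KI, was not called (0.35, adjusted p = 0.068, and -1.97 under Sertoli scaling).

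Among the enzymes at P40, Hsd3b1 was at 119, 119 and 158 CPM in WT and 282, 282 and 266 in INSL3-KI, a log2 difference of 1.12 (SE 0.17, edgeR adjusted p = 0.0016) under TMM and -1.16 under Sertoli scaling. Hsd3b6 was at 108, 123 and 104 CPM in WT and 248, 379 and 336 in INSL3-KI, 1.59 (SE 0.21, adjusted p = 0.00099) under TMM and -0.76 under Sertoli scaling. Srd5a1 was at 13.3, 14.7 and 16.2 CPM in WT and 28.6, 38.2 and 33.2 in INSL3-KI, 1.23 (SE 0.17, adjusted p = 0.001) under TMM and -1.08 under Sertoli scaling. The paralogous dehydrogenases were therefore higher in TMM-scaled CPM and lower per unit of Sertoli marker. Cyp11a1, at 302, 262 and 327 CPM in WT and 449, 361 and 444 in INSL3-KI, was not called (0.54, adjusted p = 0.028, and -1.73 under Sertoli scaling). Cyp17a1, at 416, 369 and 389 CPM in WT and 310.3, 304 and 317 in INSL3-KI, was not called under TMM (-0.28, adjusted p = 0.11) and was at -2.58 under Sertoli scaling. Hsd17b3 was at 33.3, 27.3 and 28.5 CPM in WT and 13.2, 9.79 and 10.5 in INSL3-KI, which was lower in both scalings (-1.36, SE 0.15, adjusted p = 0.00051 under TMM and -3.62 under Sertoli scaling).

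Markers of other cell types differed as well. At P40 the summed CPM of 14 spermatid markers was 17576 to 22082 in WT and 205 to 888 in INSL3-KI, that of 14 Sertoli markers was 2256 to 2545 and 7609 to 10776, and that of 10 macrophage markers was 164 to 233 and 584 to 814. None of these markers was at 0 in every library of either group, and their part in the result was not tested beyond the change of scale. Over all genes the median difference (log2) was 0.09 with TMM, 0.70 with library size only and -2.19 with Sertoli scaling, so that under Sertoli scaling Star, Lhcgr, Nr5a1, Hsd3b1, Hsd3b6 and Srd5a1 were below 0 and still above that median. With library size only 7 of the genes were called, all higher, where 6583 of all 16677 genes were higher and 2458 lower.

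**Figure D2:**
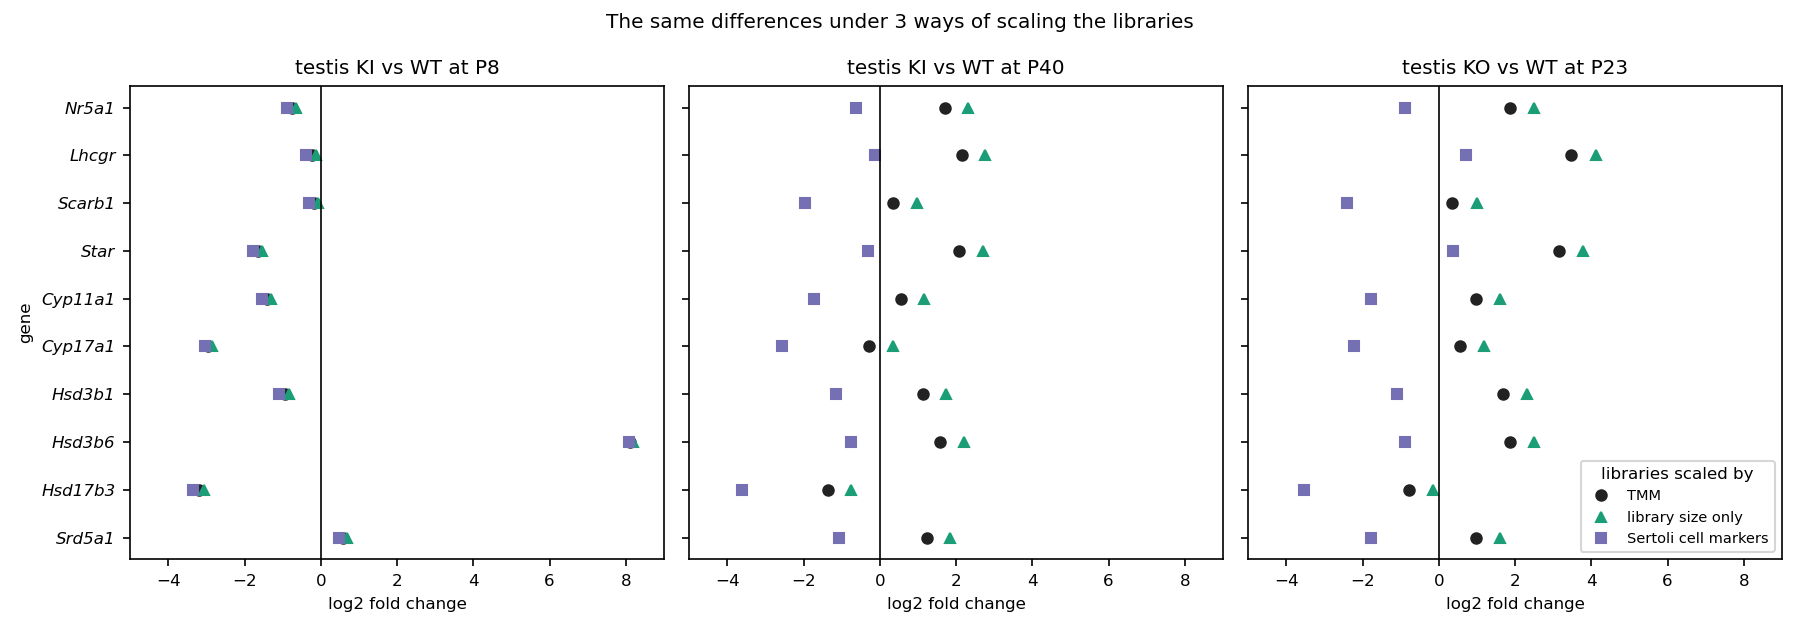
Log2 fold change of the 10 genes in INSL3-KI against WT testis at P8 and P40 and INSL3-KO against WT testis at P23 under TMM (circles), library size only (triangles) and Sertoli scaling (squares). The 3 scalings nearly coincided at P8, whereas Lhcgr at P40 was 2.15 under TMM and -0.13 under Sertoli scaling, and Hsd17b3 was below 0 under each scaling in all 3 comparisons.

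The difference between the knock-in effects at P40 and P8 was tested directly in a fit of the 12 libraries of both ages, and 8 of the 10 genes were called, 7 with a higher and 1 with a lower effect at P40, where 45.6% of all 17354 genes tested were called. The difference was largest for Hsd3b6 (-6.57, SE 1.33, edgeR adjusted p = 0.0016), whose P8 reference was nearly at 0. It was 3.65 for Star (SE 0.43, adjusted p = 6.7e-05), 2.37 for Nr5a1 (adjusted p = 2.6e-05) and 2.31 for Lhcgr (adjusted p = 6e-05). For the enzymes it was 2.60 for Cyp17a1, 1.99 for Hsd3b1, 1.88 for Cyp11a1 and 1.74 for Hsd17b3. Srd5a1 (0.58, adjusted p = 0.21) and Scarb1 (0.45, adjusted p = 0.024) were not called. Leaving out INSL3-KI P8 replicate 2 and P40 replicate 1 together gave 9 called genes, with Star at 4.03 and Hsd3b6 at -4.64, where 4161 of all 17606 genes were higher and 4403 lower. Sertoli scaling of this contrast, added after seeing the data, called 4 of the 10 genes, 1 higher (1.15% of all genes) and 3 lower (59.2% of all genes), and moved the median over all genes from -0.01 to -2.17. Star (1.38, edgeR adjusted p = 0.0063) and Hsd3b6 (-8.95, adjusted p = 0.00024) were called in the same direction as under TMM, and Scarb1 (-1.74) and Srd5a1 (-1.67) were called lower. The other 6 were not called and lay between -0.35 and 0.36, with Hsd17b3 at -0.35, Cyp11a1 at -0.26 and Hsd3b1 at -0.13 turned below 0 and Nr5a1 at 0.18, Lhcgr at 0.19 and Cyp17a1 at 0.36. Of the 8 differences called under TMM, 2 were therefore called in both scalings.

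**Figure D3:**
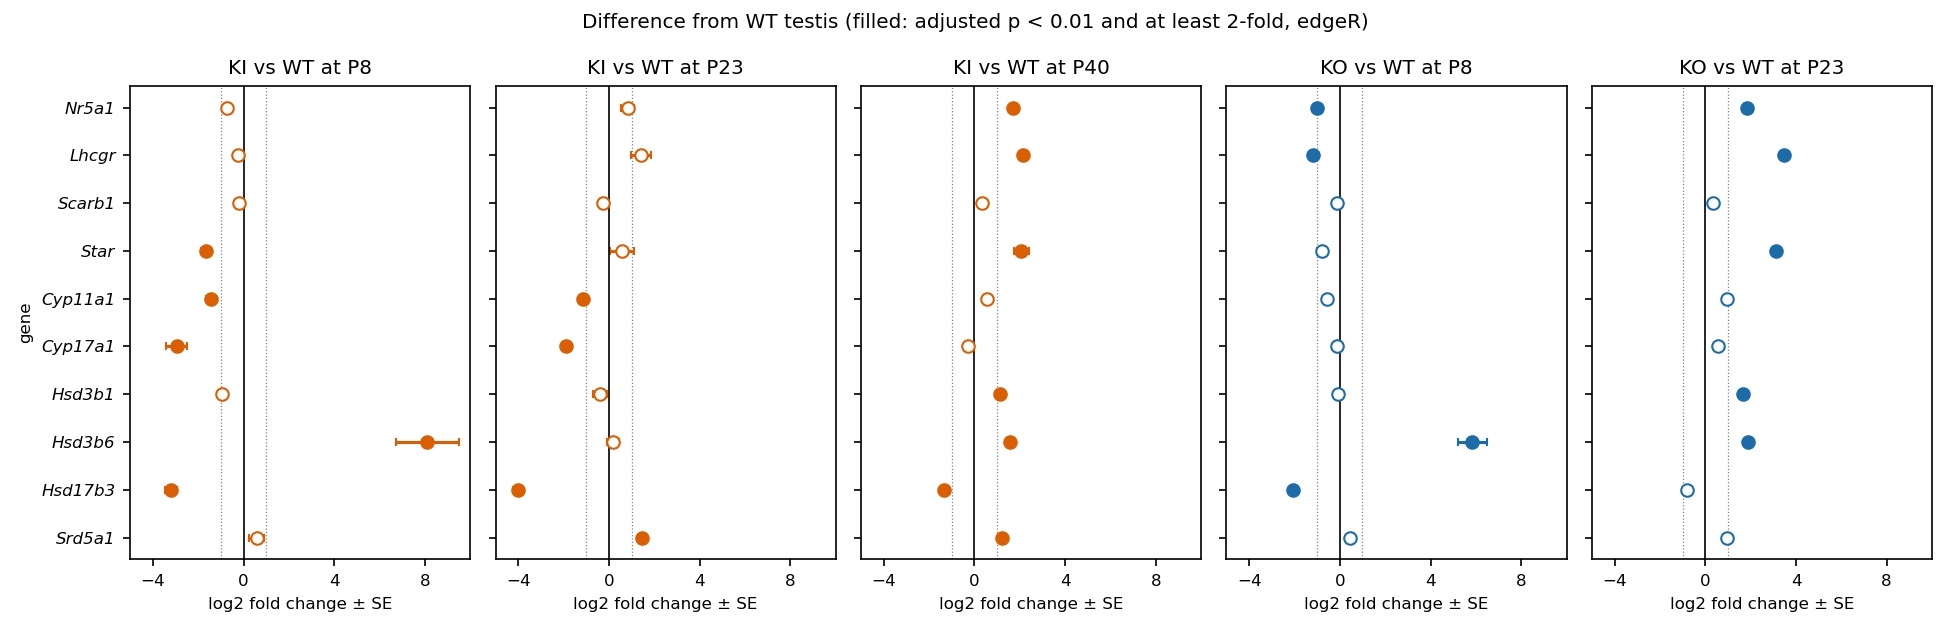
Log2 fold change of each of the 10 genes with its SE as a bar in the testis comparisons of mutant with WT (TMM scaling, edgeR), filled where called. Hsd17b3 lay below 0 in all 5 comparisons, and Star was at -1.65 at P8 and 2.07 at P40 in INSL3-KI, the latter being -0.30 under Sertoli scaling.

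In the libraries labelled INSL3-KO at P8, 4 of the 10 genes were called against WT testis, 3 lower and 1 higher, where 13.8% of all 15723 genes tested were called, and the groups stood in different tables. Hsd17b3 was at 20.3, 22.2 and 22.3 CPM against 81.4 to 109 in WT (log2 fold change -2.06, SE 0.12, edgeR adjusted p = 2.7e-05). Nr5a1 was at 119, 124 and 125 CPM against 217 to 288 in WT (-1.03, SE 0.10, adjusted p = 0.00018). Lhcgr was at 10.7, 8.86 and 12.2 CPM against 23.1 to 25.0 in WT (-1.17, SE 0.13, adjusted p = 3e-04), but in FPKM, with the unequal gene models, it was 0.21 or 0.25 with a pseudocount of 1 or 0.1, so its direction depended on the unit. Hsd3b6 had 147, 110 and 143 counts against 3, 0 and 3 in WT, a share of counts 66.28 times higher (95% counting interval 30.18 to 181.7). The mutant and WT libraries did not overlap in any of these 4 genes, which were picked because they were called. The share of all genes without overlap in this comparison is not reported here.

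Cyp11a1 was at 81.7, 86.1 and 80.9 CPM in these P8 libraries, lower than WT by less than 2-fold (-0.54, edgeR adjusted p = 0.00038), and Star, at 37.9, 37.1 and 39.1 CPM, was at -0.80 (adjusted p = 0.0096). Cyp17a1, at 110.3, 108 and 99.8 CPM, overlapped WT (-0.13), and Hsd3b1 (-0.09), Scarb1 (-0.13) and Srd5a1 (0.46, adjusted p = 0.026) were not called.

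Set directly against each other at P8, INSL3-KI and the libraries labelled INSL3-KO differed in 1 of the 10 genes, where 3.92% of all 15728 genes were called. That gene was Cyp17a1, lower in INSL3-KI (-2.84, SE 0.47, edgeR adjusted p = 0.0053), while under Sertoli scaling 1 gene was called and it was higher, as were 4.09% of all genes. Cyp17a1 was not called without any of the INSL3-KO libraries in turn. Hsd17b3 was at -1.15 (adjusted p = 0.013), Cyp11a1 at -0.90 (adjusted p = 0.021) and Hsd3b6 at 2.27 (adjusted p = 0.093). Without INSL3-KI replicate 1 or replicate 2, 2 genes were called.

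At P23, 5 of the 10 genes were called in INSL3-KO against WT testis under TMM, all higher, where 64.4% of all 16732 genes tested were called, while under Sertoli scaling 6 were called, all lower, where 79.9% of all genes were lower. The genes called under TMM were Lhcgr, Star, Hsd3b6, Nr5a1 and Hsd3b1. All 10 genes were without overlap between genotypes in TMM-scaled CPM, as were 89.7% of all genes tested. Both groups stood in the second table and their replicates were close.

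Lhcgr was at 122, 121 and 121 CPM in INSL3-KO against 10.1 to 13.5 in WT at P23, a log2 fold change of 3.47 (SE 0.10, edgeR adjusted p = 2.6e-10) under TMM and 0.71 under Sertoli scaling. Star was at 310.0, 300.4 and 304 CPM against 35.4 to 37.3 in WT, with 3.14 (SE 0.05, adjusted p = 3.2e-12) under TMM and 0.38 under Sertoli scaling. Nr5a1 was at 186, 193 and 180.1 CPM against 49.6 to 58.1 in WT, with 1.86 (SE 0.07, adjusted p = 1.5e-09) under TMM and -0.90 under Sertoli scaling. The receptor and the cholesterol carrier thus stayed above WT in both scalings, and the transcription factor did not.

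Hsd3b6 was at 365, 352 and 359.6 CPM in INSL3-KO against 98.8 to 106 in WT at P23, with 1.87 (SE 0.05, edgeR adjusted p = 9.1e-11) under TMM and -0.90 under Sertoli scaling. Hsd3b1 was at 472, 466 and 476 CPM against 146 to 159 in WT, with 1.68 (SE 0.05, adjusted p = 1.6e-10) under TMM and -1.09 under Sertoli scaling. Cyp11a1 (464, 473 and 455 CPM, log2 fold change 0.97), Srd5a1 (0.98), Cyp17a1 (0.55) and Scarb1 (0.36) were higher than WT by less than 2-fold under TMM and between -1.78 and -2.40 under Sertoli scaling. Hsd17b3, at 18.9, 17.4 and 15.8 CPM against 30.5 to 32.8 in WT, was lower by less than 2-fold under TMM (-0.79) and at -3.55 under Sertoli scaling.

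The make-up of these libraries also differed. The 14 spermatid markers summed to 26117 to 28776 CPM in WT P23 testis and to 93 to 101 in INSL3-KO, with Catsper1 at 0 in the latter, and the 14 Sertoli markers to 2876 to 2971 and 13897 to 14175. The 10 macrophage markers summed to 219 to 228 CPM in WT and 1247 to 1295 in INSL3-KO. In INSL3-KI at P23 the spermatid sum was 2779, 3427 and 977 CPM and the Sertoli sum 3730, 2927 and 7399, with replicate 3 the farthest from WT in both. Over all genes, the median difference (log2) of INSL3-KO from WT was 0.06 under TMM and -2.70 under Sertoli scaling. At P8 the fetal Leydig cell markers (5 genes) summed to 137 to 211 CPM in WT, 27 to 60 in INSL3-KI and 67 to 74 in the libraries labelled INSL3-KO, and in all groups at P23 and P40 to 15 at most. In WT gubernaculum at P8 the fetal Leydig list summed to 449 to 592 CPM, so it is not particular to Leydig cells. The part of all these marker lists in the results was not tested beyond the change of scale.

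**Figure D4:**
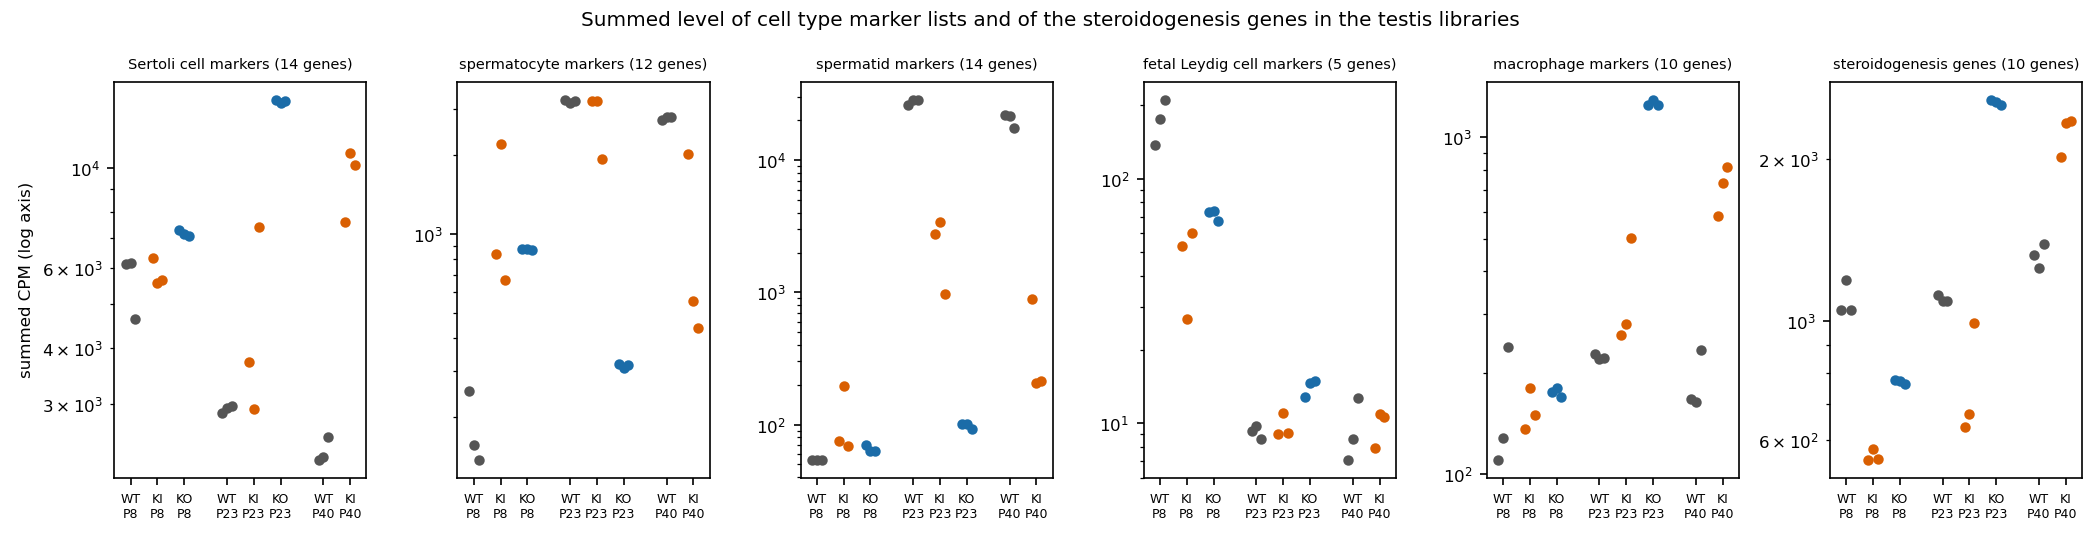
Summed TMM-scaled CPM of 5 marker lists and of the 10 steroidogenesis genes in the 24 testis libraries on log axes, each point being a library and each colour a genotype. Spermatid markers summed to 93 to 101 in INSL3-KO at P23 against 26117 to 28776 in WT.

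At P23 INSL3-KI was lower than INSL3-KO in 7 of the 10 genes under TMM, where 38.2% of all 16379 genes were called, while under Sertoli scaling 1 gene was called and it was higher, where 52.5% of all genes were higher. The 7 were Hsd17b3 (-3.19, SE 0.24, edgeR adjusted p = 0.00017), Star (-2.52), Cyp17a1 (-2.41), Cyp11a1 (-2.05), Hsd3b1 (-2.05), Lhcgr (-2.02) and Hsd3b6 (-1.65). Nr5a1 (-1.0, adjusted p = 0.019), Scarb1 (-0.59) and Srd5a1 (0.51, adjusted p = 0.011) were not called. All 10 genes were without overlap between these groups in TMM-scaled CPM, as were 76% of all genes tested. The groups stood in different tables. Without any of the INSL3-KO libraries in turn 4 genes were called.

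Ratios between members within a library do not depend on the scaling between libraries. The FPKM of Hsd17b3 divided by that of Cyp11a1 was 1.20 to 1.45 in WT at P8, 0.255 to 0.756 in INSL3-KI and 0.409 to 0.454 in the libraries labelled INSL3-KO. At P23 it was 0.202 to 0.220 in WT, 0.0228 to 0.0300 in INSL3-KI and 0.0574 to 0.0670 in INSL3-KO. At P40 it was 0.143 to 0.193 in WT and 0.0405 to 0.0524 in INSL3-KI. Hsd17b3 was thus lower relative to Cyp11a1 in each mutant group than in WT of the same day. None of the 5 pairs of groups overlapped. No test was run, since an exact permutation test of 3 libraries against 3 cannot go below p = 0.1. In INSL3-KO at P23 the FPKM of Hsd17b3 itself overlapped WT, while that of Cyp11a1 was 207 to 220 against 68.3 to 69.4.

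The ratio of Cyp17a1 to Cyp11a1 set the mutants apart from each other at P8. It was 0.983 to 1.18 in WT, 0.179 to 0.662 in INSL3-KI and 1.44 to 1.58 in the libraries labelled INSL3-KO. At P23 it was 1.28 to 1.40 in WT, 0.690 to 0.745 in INSL3-KI and 0.979 to 1.01 in INSL3-KO, and at P40 it was 1.28 to 1.60 in WT and 0.805 to 0.979 in INSL3-KI. Lhcgr to Cyp11a1 was 0.0312 to 0.0359 in WT and 0.0937 to 0.139 in INSL3-KI at P40, and 0.0342 to 0.0455 in WT and 0.212 to 0.222 in INSL3-KO at P23. Star to Cyp11a1 was 0.124 to 0.134 in WT and 0.211 to 0.539 in INSL3-KI at P40, and 0.108 to 0.116 in WT and 0.483 to 0.508 in INSL3-KO at P23. The receptor and Star were thus higher against Cyp11a1 in INSL3-KI at P40 and in INSL3-KO at P23. In INSL3-KI at P23, across tables, they overlapped WT, with Star to Cyp11a1 at 0.109, 0.106 and 0.550 and Lhcgr to Cyp11a1 at 0.0379, 0.0539 and 0.163, the highest being replicate 3 in both.

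The change from Hsd3b1 to Hsd3b6 was described by the share of Hsd3b6 in the summed FPKM of the pair. In WT it was 0 to 0.0322% at P8, 39 to 42.9% at P23 and 41.5 to 52.5% at P40. INSL3-KI held 2.94%, 34.2% and 4.47% at P8, and the libraries labelled INSL3-KO held 1.76%, 1.41% and 1.89%. At P23 the share was 49.8 to 54.5% in INSL3-KI and 43.6 to 45.7% in INSL3-KO, and at P40 it was 47.8 to 58.2% in INSL3-KI. Every mutant library at P8 was above every WT library, INSL3-KI replicate 2 lay near the shares of P23, and from P23 on the groups were close.

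**Figure D5:**
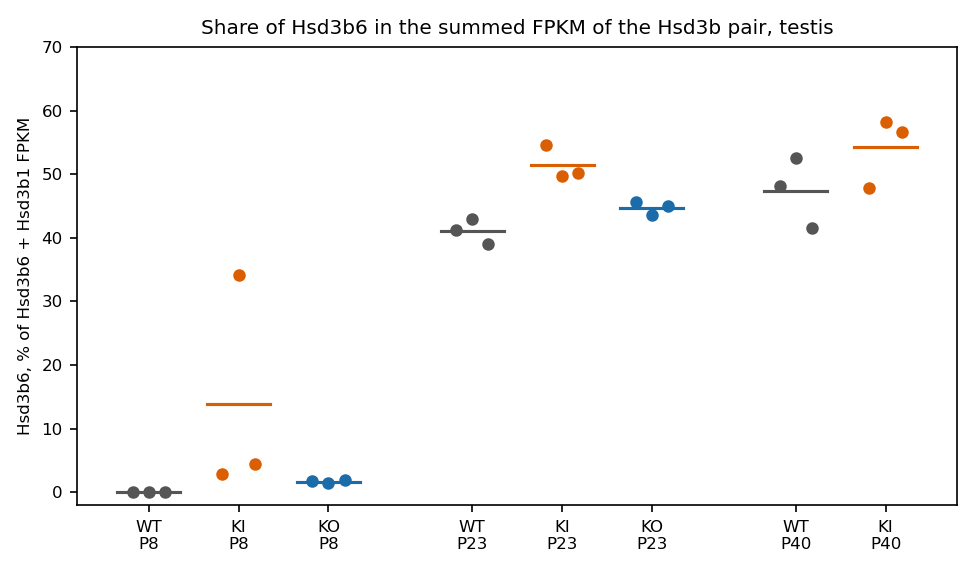
Share of Hsd3b6 in the summed FPKM of Hsd3b6 and Hsd3b1 in each testis library, in percent, by postnatal day and genotype, with points for libraries and lines for group means. At P8 WT was at 0 to 0.0322%, INSL3-KO at 1.41 to 1.89% and INSL3-KI at 2.94 to 34.2%.

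With age, WT testis gained the adult paralog. In WT P40 against P8, 3 of the 10 genes were called higher and 2 lower under TMM, where 59.7% of all 16892 genes were called, against 8 higher and 0 lower under Sertoli scaling, where 62.8% of all genes were higher, and 2 higher and 4 lower with library size only. Hsd3b6 went from 6 counts over 3 libraries to 8650, a share of counts 1426 times higher (95% counting interval 654.9 to 3887). Cyp17a1 was 1.68 higher on the log2 scale (edgeR adjusted p = 3.2e-06) and Cyp11a1 1.22 higher (adjusted p = 2.1e-05), while Nr5a1 was at -1.98 (adjusted p = 4.5e-06) and Hsd17b3 at -1.68 (adjusted p = 1.7e-05) under TMM, the latter at 0.21 under Sertoli scaling. In WT P23 against P8, across tables, 2 genes were called higher (Hsd3b6 and Cyp17a1, 1.21) and 3 lower (Nr5a1, -2.29, Hsd17b3, -1.60, and Lhcgr, -1.13), where 61.9% of all 16908 genes were called, against 6 higher and 0 lower under Sertoli scaling, where 62.5% of all genes were higher, and 1 higher and 6 lower with library size only, with Hsd17b3 at 0.25 and Lhcgr at 0.69 under Sertoli scaling. With the unequal gene models of Lhcgr, its FPKM was 2.34 to 3.13 in WT at P23 against 3.92 to 4.18 at P8. The median of all genes moved from -0.03 under TMM to 1.84 under Sertoli scaling in WT P40 against P8. With library size only, 4200 of all genes were higher and 6900 lower in WT P40 against P8, and 4236 and 7239 in WT P23 against P8.

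In INSL3-KI P40 against P8, 5 of the 10 genes were called, all higher, where 5.48% of all 15952 genes were called: Cyp17a1 (4.25, edgeR adjusted p = 0.0061), Star (3.75), Cyp11a1 (3.10), Lhcgr (2.69) and Hsd3b1 (1.44). Without INSL3-KI P8 replicate 1 or 3, or P40 replicate 2 or 3, 0 were called, and without P8 replicate 2 there were 6. In INSL3-KI P23 against P8 only Hsd17b3 was called (-2.48, adjusted p = 0.0088), where 9.23% of all 16412 genes were called. That call was lost without P8 replicate 1 or 3 or P23 replicate 1 or 2, without P8 replicate 2 there were 4 called genes and without P23 replicate 3 there were 3, and 6 were called without both libraries that stood apart. Without both, 4379 of all 16810 genes were higher and 2660 lower. In INSL3-KI P40 against P23, edgeR called 0 of the 10 genes and 0% of all 16328 genes, the lowest adjusted p being 0.099. At an unadjusted p under 0.05 there were 9 of the 10 genes and 7615 of all genes. DESeq2 called 7 of the 10, where 301 of all 17590 genes were higher and 874 lower. Without the libraries that stood apart 8 were called, where 3320 of all 16662 genes were higher and 4304 lower.

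In INSL3-KO P23 against P8, 6 of the 10 genes were called, all higher, where 23.7% of all 15773 genes were called, and under Sertoli scaling 5 were higher and 1 lower, where 5.52% of all genes were higher and 34.4% lower. Those called under TMM were Hsd3b6 (7.01), Lhcgr (3.54), Star (3.02), Cyp11a1 (2.50), Cyp17a1 (1.90) and Hsd3b1 (1.47, edgeR adjusted p = 6.3e-13). Nr5a1 (0.62), Srd5a1 (0.57), Hsd17b3 (-0.30) and Scarb1 (0.09) differed by less than 2-fold.

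The wider pathway was read from lists of further genes, whose counts are to be read against the shares of all genes called, under TMM 6.29% in INSL3-KI at P8, 20.6% at P23 and 47.7% at P40, and 13.8% in INSL3-KO at P8 and 64.4% at P23, and under Sertoli scaling 73% lower in INSL3-KI at P40 and 79.9% lower in INSL3-KO at P23. Of the cofactors and further steroid enzymes (22 genes), 0 were higher and 3 lower of 21 tested in INSL3-KI at P8, with a median log2 fold change of -0.28 against 0.00 for all genes. Among the lower genes, Hsd17b1, which acts on oestrogens and androgens, was at -4.01. Also lower was Fdxr, the reductase of the electron chain that serves Cyp11a1, at -1.16. In the libraries labelled INSL3-KO at P8, 2 of the list were lower, among them Hsd17b1 (-2.77), and 0 higher. At P40 in INSL3-KI 11 were higher and 3 lower of 22, with a median of 1.04 under TMM, against 0 higher and 12 lower under Sertoli scaling, and at P23 in INSL3-KO 17 were higher and 3 lower of 21, with a median of 1.51, against 0 higher and 14 lower. The hormone-sensitive lipase Lipe (-4.40 and -5.53) and the aromatase Cyp19a1 (-3.69 and -5.82) were among the lower genes in both scalings, and Sult1e1, the oestrogen sulfotransferase, was at -2.61 in INSL3-KI. Lipe, Cyp19a1 and Sult1e1 were also lower in INSL3-KI at P23 (-3.23, -2.53 and -6.21). Germ cells are also known to express Lipe and Cyp19a1, and the spermatid markers given above moved with them.

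Of the 19 genes of cholesterol synthesis, 0 were called in INSL3-KI at P8, 2 were higher and 4 lower at P23, and 7 were higher and 3 lower at P40 under TMM, where Msmo1 was at 2.10, Ebp at 1.87 and the squalene synthase Fdft1 at -2.82, against 0 higher and 13 lower under Sertoli scaling. In INSL3-KO at P23, 9 were higher and 3 lower, with Msmo1 at 2.85, Dhcr7 at 2.51 and Fdft1 at -3.32, against 0 higher and 12 lower under Sertoli scaling. The shares called at P40 and in INSL3-KO at P23 were near those of all genes, and the list medians under TMM were 0.66 and 0.76 against 0.09 and 0.06 for all genes. Of 17 regulators of Leydig cells, Insl3 included, 8 were lower and 0 higher in INSL3-KI at P8, with Nr4a1, a nuclear receptor induced by luteinizing hormone, at -2.21 and Gata4, a factor of gonadal somatic cells, at -1.76. In the libraries labelled INSL3-KO at P8, 7 were lower and 0 higher, with Cebpb at -2.62. At P40 in INSL3-KI 14 were higher and 1 lower under TMM and 0 higher and 5 lower under Sertoli scaling, with Pdgfra at 2.72 and Nr2f2 at 2.43 under TMM, both markers of stem Leydig cells.

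Genes that respond to androgen in Sertoli cells moved the opposite way to Hsd17b3 at P8. Of 6, 5 were higher and 0 lower in INSL3-KI, under Sertoli scaling too, with Tsx at 4.76, Rhox5 at 4.01 and Eppin at 3.30, and in the libraries labelled INSL3-KO Rhox5 was at 4.05, Eppin at 3.62 and Tsx at 3.36. Spermatocyte markers (12 genes) summed to 137 to 253 CPM in WT and 665 to 2195 in INSL3-KI, highest in replicate 2, and to 868 to 877 in the libraries labelled INSL3-KO. The part of these markers in the P8 results was not tested. Adrenal cortex markers (6 genes) summed to 4 to 30 CPM over all testis groups. Their far higher sums in mutant gubernaculum are given below with that tissue.

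Gubernaculum held little of the pathway. Scarb1 had the most counts in every group, 1923 to 2002 in WT at P8, while Hsd17b3 had 10, 36 and 8 counts and Lhcgr 18, 8 and 10. In INSL3-KI against WT at P8, 2 of the 6 genes tested were called, where 24.1% of all 15500 genes were called, and in INSL3-KO against WT 2 of the 9 tested, where 30.7% of all 15609 were called. They were Cyp11a1, with 148, 146 and 142 counts in WT, 39, 15 and 22 in INSL3-KI (-2.67, SE 0.36, edgeR adjusted p = 0.00045) and 27, 49 and 30 in INSL3-KO (-2.44, SE 0.27, adjusted p = 0.00019), and Srd5a1, with 193, 239 and 221 counts in WT, 687, 394 and 501 in INSL3-KI (1.13, SE 0.20, adjusted p = 0.0016) and 564, 698 and 664 in INSL3-KO (1.16, SE 0.12, adjusted p = 0.00015). No mutant library overlapped WT for either gene, the same WT libraries served both comparisons, and INSL3-KO stood in the other table. The fit of all gubernaculum groups called 0 of the genes in INSL3-KI and 1, Srd5a1, in INSL3-KO, with Cyp11a1 at an edgeR adjusted p of 0.029 and 0.035. Of all 16342 genes, that fit called 1323 higher and 1198 lower in INSL3-KI and 1526 and 1927 in INSL3-KO. Markers of other tissues moved with these genes at P8. Skeletal muscle markers (7 genes) summed to 37206 to 38662 CPM in WT, 1251 to 2078 in INSL3-KI and 7044 to 7615 in INSL3-KO, epididymis markers (7 genes) to 0.54 to 1.59, 675 to 1741 and 1209 to 1324, and adrenal cortex markers (6 genes) to 0.38 to 0.48, 915 to 1975 and 188 to 196. Fetal Leydig cell markers (5 genes) summed to 449 to 592, 40.6 to 92.3 and 156 to 177 in turn. The WT sums lay above the 137 to 211 CPM of WT testis at P8, although Nr5a1 had only 21, 39 and 8 counts here. That list is therefore not particular to Leydig cells. The mutant libraries thus held less of the muscle list and more of the epididymis and adrenal lists than WT without overlap, and the part of these markers in the result was not tested. In WT, 3 epididymis and 3 adrenal markers were at 0 in every library. So were 2 of each list in INSL3-KI and 1 of each in INSL3-KO. Which genes carried the sums was not examined. Star and Cyp11a1 were at 2.06 and 0.362 mean FPKM in INSL3-KI and at 1.25 and 0.366 in INSL3-KO. The adrenal sums alone do not name a tissue. At P23 in INSL3-KI, edgeR and DESeq2 called 0 of the 5 genes tested, where 2.57% of all 15082 genes were called, with 2 of the 5 at an unadjusted p under 0.05. Cyp17a1 there had 10, 31 and 460 counts, nearly all in replicate 3, against 6, 0 and 0 in WT, and the adrenal cortex markers summed to 330 to 4381 CPM against 0.85 to 36.8.

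Over the 24 testis libraries, the genes most like Cyp11a1 in log2 CPM among 15347 genes were Pgbd5 (Pearson r = 0.936), Fabp3 (0.931) and Nucb2 (0.922), those most like Hsd3b6 were Dmrtc1b (0.988), Tsx (0.987) and Corin (0.983), and among those most like Srd5a1 were Atg4b (0.902) and Bod1l (0.890). Between members the likeness was 0.92 for Cyp11a1 and Cyp17a1, 0.90 for Star and Lhcgr and -0.78 for Hsd17b3 and Srd5a1. For Nr5a1 it was 0.752 with Scarb1 and -0.0381 with Cyp11a1. These values describe libraries that share groups and tables and carry no test.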

How the data were processed

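Total RNA of mouse testis and gubernaculum was sequenced as poly(A) libraries with the Hieff NGS Ultima kit. The authors deposited 2 tables of read counts per gene, with FPKM beside the counts, and replicates were not pooled in them. HISAT2 and GRCm38 are named in the submitters' processing notes, and the counting tool and strand setting are not given in the sources used here. Every value column belonged to a named library of the series.

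The tables were joined on Ensembl identifiers (21561 shared genes). Counts were tested with edgeR 4.0.16 (glmQLFit, glmQLFTest, TMM, filterByExpr with a minimum count of 10) in R 4.3.3, pairwise for the groups compared and with Benjamini-Hochberg adjustment over all genes tested. Calls needed an adjusted p under 0.01 and a 2-fold difference. DESeq2 1.42.0, limma 3.58.1 on log2(FPKM + 1) or log2(FPKM + 0.1), library size only, scaling on 14 Sertoli cell markers, no filter, no fold minimum, 1 fit of all groups, a replicate block and leaving out each library were alternatives. Leaving out the INSL3-KI libraries that stood apart, and Sertoli scaling of the difference between knock-in effects, were added after the data were seen. No pair of libraries agreed within sampling noise. The steps were run on simulated counts with few genes changed and no shift in make-up between groups, so this does not check the choice of scaling. Intervals cover counting error only.

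The 10 genes and the lists, the latter written from textbook knowledge, were chosen with earlier results of these data known. Besides the 10 genes and Insl3, at most 3 called genes per list and comparison were named, those with the largest change without overlap between groups and a mean of at least 1 CPM. Likeness was Pearson's r of log2 CPM over the 24 testis libraries. Some genes that met these rules are not reported here. Promoters are from RefSeq.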

Additional observations from a re-analysis of the deposited data

Results flagged for a closer look

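The knock-in effect on testis differed between P40 and P8 by the interaction test for 8 of the 10 genes, by 3.65 on the log2 scale for Star, 2.60 for Cyp17a1, 2.37 for Nr5a1, 2.31 for Lhcgr, 1.99 for Hsd3b1, 1.88 for Cyp11a1, 1.74 for Hsd17b3 and -6.57 for Hsd3b6, where 45.6% of all genes were called. Under Sertoli scaling 2 of these 8 were called in the same direction, Star at 1.38 and Hsd3b6 at -8.95, while Hsd17b3 (-0.35), Cyp11a1 (-0.26), Hsd3b1 (-0.13), Nr5a1 (0.18), Lhcgr (0.19) and Cyp17a1 (0.36) were not called.

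The following pairs moved in opposite directions in every library in TMM-scaled CPM, and the differences between them were not tested. In INSL3-KI against WT testis, Nr5a1 was at -0.75 at P8 and 0.83 at P23, Cyp11a1 at -1.13 at P23 and 0.54 at P40, and Scarb1 at -0.28 at P23 and 0.35 at P40. The P23 value of Nr5a1 and the P40 values of Cyp11a1 and Scarb1 were below 0 under Sertoli scaling. In INSL3-KO against WT testis, between P8 and P23, Star was at -0.80 and 3.14, Cyp11a1 at -0.54 and 0.97, Lhcgr at -1.17 and 3.47, Nr5a1 at -1.03 and 1.86, and Scarb1 at -0.13 and 0.36, where the P23 values of Cyp11a1, Nr5a1 and Scarb1 were below 0 under Sertoli scaling. The P8 comparison crosses tables with unequal gene models for Star and Lhcgr, and in FPKM Star at P8 overlapped WT (15.5 to 16.3 against 13.5 to 23.5) and Lhcgr was at 4.03 to 5.54 against 3.92 to 4.18. Between testis and gubernaculum at P8, Star was at -1.65 and 0.72 and Scarb1 at -0.18 and 0.88 in INSL3-KI, and Scarb1 at -0.13 and 0.34 in INSL3-KO. At P23 in INSL3-KI, Cyp17a1 was at -1.91 in testis and 5.61 in gubernaculum, the latter resting mostly on replicate 3.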

How the results depend on the processing

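Over all alternatives, 988 values of single genes that were called were recomputed; 830 kept direction and side of the threshold, 141 were no longer past it and 17 turned. Sertoli scaling turned 15 of its 63 values. For the knock-in effect at P40 against P8, where it was added after seeing the data, it called 4 genes with the balance of directions turned, and Hsd17b3 was at -0.35, Cyp11a1 at -0.26 and Hsd3b1 at -0.13. In INSL3-KI against WT at P40 it called 6 genes, all lower, with Star at -0.30, Hsd3b1 at -1.16, Hsd3b6 at -0.76, Lhcgr at -0.13, Nr5a1 at -0.62 and Srd5a1 at -1.08. In INSL3-KO against WT at P23 it called 6, all lower, with Hsd3b1 at -1.09, Hsd3b6 at -0.90 and Nr5a1 at -0.90. It called 1 gene, higher, in each of INSL3-KI against INSL3-KO at P8 and P23, 8 in WT P40 against P8 (Hsd17b3 at 0.21), 6 in WT P23 against P8 (Hsd17b3 at 0.25, Lhcgr at 0.69) and 0 in INSL3-KI P23 against P8, where 0 of all 16412 genes were called. By construction it moves the median of all genes, as given above. It takes the typical Sertoli marker as equal between the groups and ages compared, which was not tested.

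Limma on FPKM called 2 genes with either pseudocount in INSL3-KO against WT at P8, where Lhcgr was at 0.21 and 0.25, 8 in INSL3-KO against WT at P23, 2 in INSL3-KI against INSL3-KO at P8, 2 in INSL3-KI P23 against P8 with the lower pseudocount, and 5, with the balance of directions turned, in WT P40 against P8. Of all genes, limma with a pseudocount of 1 called 834 higher and 671 lower of 15723 in the first of these. In the second it called 5522 and 3658 of 16732, in the third 228 and 232 of 15728 and in the last 3514 and 5735 of 16892. With the lower pseudocount it called 1797 higher and 1639 lower of 16412 in INSL3-KI P23 against P8. Library size only called 8 in INSL3-KO against WT at P23, where 7188 of all 16732 genes were higher and 4537 lower. In WT P40 against P8 it called 6, where 4200 of all 16892 genes were higher and 6900 lower. DESeq2 called 2 in INSL3-KI against INSL3-KO at P8, where 642 of all 15643 genes were higher and 256 lower. It called 3 in INSL3-KI P23 against P8, where 3493 of 17546 were higher and 1438 lower, and 7 in P40 against P23, where 301 of 17590 were higher and 874 lower. In WT P23 against P8 it called 5, of which 3 were higher, where 6197 of 19309 were higher and 4687 lower. The fit of all groups called 3 in INSL3-KI against INSL3-KO at P8, 5 in INSL3-KI P23 against P8 and 7 in P40 against P23. Of all 17851 genes, it called 546 higher and 223 lower, 3810 and 1490, and 892 and 2442 in turn. In gubernaculum at P8 that fit called 0 in INSL3-KI and 1 in INSL3-KO against WT. Without a fold minimum 10 were called in INSL3-KO against WT at P23, 2 in INSL3-KI against INSL3-KO at P8 and 8 in WT P23 against P8. Without the libraries that stood apart, an alternative chosen after seeing the data, 6 were called in INSL3-KI P23 against P8 and 8 in P40 against P23. Of all genes, 4379 of 16810 were then higher and 2660 lower in the former and 3320 of 16662 higher and 4304 lower in the latter. The cause was not tested.

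Leaving out each library gave 0 to 4 called genes in INSL3-KI against WT at P8, 2 to 4 at P23, 0 to 2 in INSL3-KI against INSL3-KO at P8 and 4 to 8 at P23, 0 to 6 in INSL3-KI P40 against P8, 0 to 4 in P23 against P8 and 1 to 2 in gubernaculum of INSL3-KI at P8. The shares of all genes called in these refits are not reported here. Replicate numbers are shared between groups. Deviations of same-numbered libraries from their group means were positively correlated in all 3 pairs only in INSL3-KO against WT testis at P8. The values there were near 0, at 0.00909, 0.0159 and 0.032. Testis was not set against gubernaculum, so whether a number names the same mouse in both tissues was not tested. With the replicate block 0 genes were called in INSL3-KI against WT at P8, 0 in INSL3-KI against INSL3-KO at P8, 0 in INSL3-KI P40 against P8 and 2 in P23 against P8; of 67 single values 12 were no longer past the threshold and 0 turned. With 3 libraries a group and wide spread in INSL3-KI, adjusted p-values near 0.01 decide many of these counts.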

Other observations

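Tm7sf2, a reductase of cholesterol synthesis, followed the table in which a library stood: it was at 3.01 in INSL3-KI against WT at P23, at -3.04 in the libraries labelled INSL3-KO against WT at P8 and at 3.13 in INSL3-KI against INSL3-KO at P8, all 3 being comparisons across tables. Rxfp2, the receptor of INSL3, was at -2.32 in INSL3-KI and -6.93 in INSL3-KO against WT testis at P23. The INSL3-KI value crosses tables. The spermatid markers given above were also lower in both mutants, and their part in these values was not tested. Amh, the Sertoli hormone that falls as these cells mature, was lower in both mutants at P8 (-2.15 in INSL3-KI and -2.07 in the libraries labelled INSL3-KO) and higher under TMM at P23 (3.22 and 3.64) and in INSL3-KI at P40 (3.55), where under Sertoli scaling it was at 1.88, 0.88 and 1.20 in turn.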
